A study of Homo sapiens with 18 samples.

Results

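The genes described here are the sensors of double-stranded RNA (dsRNA), the adaptors that carry their signal, and the enzyme that edits dsRNA. All 10 genes of this group (RIGI, IFIH1, DHX58, TLR3, ZBP1, EIF2AK2, MAVS, TRAF3, TRIM25 and ADAR) were found by Ensembl identifier among the 35044 genes of the raw count table, and all 10 passed the filter on low counts that left 18335 genes to test. RNA-seq libraries came from HCC1937, a human breast cancer cell line with mutated BRCA1. It carried either an empty vector (HCC1937-EV) or wild-type BRCA1 for overexpression (HCC1937-OE-BRCA1), and each was sequenced untreated (0 h) and at 12 h and 24 h of exposure to olaparib (10 µmol/L), an inhibitor of the DNA repair enzyme PARP (PARPi). Each of the 6 conditions had 3 libraries, and each genotype was represented by a single engineered line. Nothing in the labels said that replicates were separate cultures, so p-values measure the spread between these libraries, which may be technical.

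Long dsRNA is rare in healthy cytosol and is read there as a sign of infection. RIG-I (RIGI) and MDA5 (IFIH1) bind it and signal through MAVS on mitochondria to interferon genes, TLR3 does so from endosomes, PKR (EIF2AK2) stops translation, and ADAR edits adenosines so that the cell's own dsRNA is less well sensed. Many of these genes are themselves induced by interferon, so that a response raises the level of its own sensors.

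The 18 libraries held between 15081973 and 17571922 counts. The introduced gene was a weak check of the labels. BRCA1 averaged 118 ± 7.70 CPM (counts scaled for library size and composition; SD, n = 3) in untreated HCC1937-EV and 138 ± 24.0 CPM in untreated HCC1937-OE-BRCA1, with overlapping libraries (edgeR's quasi-likelihood test, adjusted p = 0.0654). At 24 h the levels were 94.5 ± 4.47 and 161 ± 7.07 CPM (adjusted p = 3.17e-06), and counts per gene cannot separate the mutated from the introduced copy. Lines are named here as in the sample titles, since the genotype label of HCC1937-EV reads WT, and 0 h was read as untreated from the titles and the study's methods, although the treatment label names olaparib at every time. The lines differed far beyond BRCA1, with log2 CPM correlations across genes of 0.981 to 0.991 between libraries of the same condition and of 0.728 to 0.753 between lines. Of 12 listed markers of mammary epithelium, 12 reached 1 CPM in HCC1937-OE-BRCA1 but 5 did in HCC1937-EV, where EPCAM, CDH1, KRT5, KRT6A, KRT14, KRT19 and TP63 stayed under 1 CPM. The markers summed to 2703 to 3422 CPM per library in HCC1937-EV and to 7307 to 11154 CPM in HCC1937-OE-BRCA1. VIM, a mesenchymal intermediate filament, averaged 306 ± 25.3 CPM in untreated HCC1937-EV and 1.05 ± 0.273 CPM in untreated HCC1937-OE-BRCA1, and the 7 listed mesenchymal markers summed to 390.1 to 458 CPM and 39.8 to 97.2 CPM. Not all of them ran that way. Of the 6 tested, 4 were lower and 2 higher in untreated HCC1937-OE-BRCA1, where 33.3% of all genes were lower and 39.4% higher. At 12 h and again at 24 h, 4 were lower and 1 higher. The 4 listed endothelial markers (KDR was not analysed here) summed to 1.11 to 2.89 CPM and 17.2 to 27.0 CPM. Every comparison between the lines below moves with these markers, and their part in it was not tested. Within HCC1937-OE-BRCA1, 1 of the 12 epithelial markers was higher at 12 h (KRT6A), 1 was higher (TP63) and 4 lower (KRT18, KRT8, KRT5 and CDH1, -0.56 to -0.35 on the log2 scale) at 24 h than untreated, and 5 were lower at 24 h than at 12 h. The mesenchymal marker FN1 was called higher at 12 h (0.96 ± 0.18) and 24 h, and the part of these markers in the changes after olaparib was not tested either.

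Promoter sequences were examined because several of the genes moved together. Elements that interferon regulatory factors and STAT complexes bind hold a pair of GAAA blocks, so windows from 250 bases before to 50 bases after each RefSeq transcript start (GRCh38.p14) were searched on both strands for GAAANNGAAA and GAAANGAAA. Of 35116 windows of that length, 3.57% held the former spacing, 3.12% the latter and 6.40% at least 1 of them. Windows were at hand for 8 of the 10 genes, and 5 of the 8 held a match (RIGI, IFIH1, TLR3, EIF2AK2 and TRIM25), while MAVS, TRAF3 and the 3 windows of ADAR held none. DHX58 and ZBP1 are named only. The stretches around 1 match per gene are printed 5′ to 3′ on the strand of the gene, with the match in capitals. Those of RIGI (chr9:32526373-32526417), IFIH1 (chr2:162318685-162318723) and EIF2AK2 (chr2:37156977-37157004), all minus strand, held the GAAA blocks on the gene's strand. Those of TLR3 (chr4:186069134-186069161, plus strand) and TRIM25 (chr17:56914044-56914070, minus strand) held them on the opposite strand and so read TTTC.
RIGI: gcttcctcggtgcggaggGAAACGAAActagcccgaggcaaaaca
IFIH1: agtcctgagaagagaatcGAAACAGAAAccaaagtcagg
TLR3: ttttttttcaagctttacTTTCACTTTC
EIF2AK2: gaaggcggagtccaagggGAAAACGAAA
TRIM25: tgctcctctcgagctaggTTTCGTTTC

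Counted from 0 at the start site, the match of RIGI lay at -203 to -195 and that of IFIH1 at -21 to -12. Those of EIF2AK2 (-6 to 3), TLR3 (-4 to 5) and TRIM25 (-3 to 5) spanned the start site itself. IFIH1 held a further pair of matches farther upstream. A match describes letters in a window and is no measurement of binding.

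Across the lines, sensors were higher in HCC1937-OE-BRCA1 at every time. In untreated cells 8 of the 10 genes were higher and 1 lower, where 39.4% of all genes tested were called higher and 33.3% lower (edgeR's quasi-likelihood test, Benjamini-Hochberg adjusted p under 0.05). At 12 h all 10 were higher against 38.8% of all genes, and at 24 h 8 were higher and none lower against 39.9% higher. The median log2 difference of the 10 genes was 0.98, 1.88 and 2.35 at 0 h, 12 h and 24 h, and that of all genes was 0.11, 0.08 and 0.12. In bulk RNA, fewer cells that express a gene and less of its RNA per cell cannot be told apart. Placing ZBP1, which had no count in HCC1937-EV at 0 h and 24 h, at its lower bound could not move the medians, since the bound lies above the middle genes. Without RIGI and ZBP1, both near 0 counts in HCC1937-EV, the median of the other 8 genes was 0.56, 1.29 and 1.44 at 0 h, 12 h and 24 h.

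After olaparib, 7 of the 10 genes rose in HCC1937-OE-BRCA1 at 12 h, where 1.7% of all genes tested rose, and none fell. At 24 h 7 were higher and 1 lower, where 4.71% of all genes were higher and 3.55% lower. Their median log2 change was 0.76 at 12 h and 0.77 at 24 h, against 0.00 and 0.02 over all genes. From 12 h to 24 h 1 of the 10 was lower, against 0.862% of all genes. In HCC1937-EV none of the 10 was called at 12 h, where 0.0436% of all genes were called in either direction. An unadjusted p under 0.05 was reached by 1 of the 10, beside 2963 of all 18335 genes. At 24 h 1 was higher and 1 lower, against 8.62% and 5.12% of all genes. From 12 h to 24 h none was called in HCC1937-EV, against 0.18% of all genes, and none had an unadjusted p under 0.05, beside 1686 of all 18335 genes. Leaving out RIGI and ZBP1, which had at most 5 counts per condition in HCC1937-EV, the median log2 change of the other 8 genes in that line was -0.08 at 12 h and -0.17 at 24 h, beside 0.00 over all genes at both times. In HCC1937-OE-BRCA1 the median of the same 8 genes was 0.58 at 12 h and 0.53 at 24 h. The change after olaparib itself differed between the lines, as an interaction term, for 3 of the 10 genes at 12 h, all more positive in HCC1937-OE-BRCA1, against 0.376% of all genes in that direction. At 24 h it was more positive for 5 and more negative for 1, against 8.16% and 11.2% of all genes. Comparisons of both times with untreated cells share the untreated libraries.

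**Figure D1:**
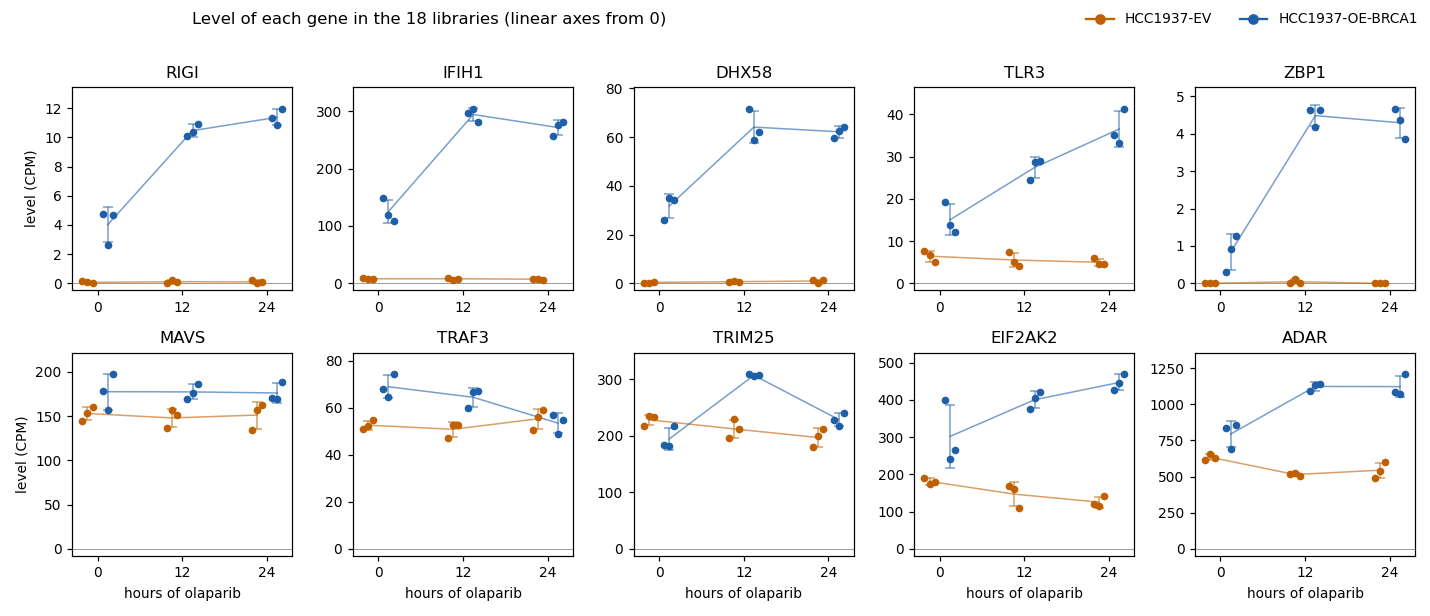
Level of each of the 10 genes in CPM (linear axes from 0) against hours of olaparib, with 1 point per library and lines with bars for the mean ± SD of 3 libraries of HCC1937-EV (orange) and HCC1937-OE-BRCA1 (blue). RIGI, IFIH1, DHX58, TLR3 and ZBP1 of HCC1937-OE-BRCA1 lie above every HCC1937-EV library at each time and higher at 12 h and 24 h than at 0 h, while MAVS stays between 134 and 197 CPM in all 18 libraries.

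The cytosolic sensors differed widely between the lines. RIGI (ENSG00000107201.11, chr9:32455705-32526324, GRCh38, minus strand; listed as DDX58 in GENCODE release 29) encodes the helicase RIG-I, which binds short dsRNA with 5′ triphosphates. In HCC1937-EV it had 2, 1 and 0 counts in the untreated libraries, 0, 4 and 1 at 12 h and 4, 0 and 1 at 24 h. In HCC1937-OE-BRCA1 its level was 4.74, 2.65 and 4.66 CPM untreated, 10.1, 10.3 and 10.9 CPM at 12 h and 11.3, 10.9 and 12.0 CPM at 24 h. RIGI was thus close to undetected in one line and present in all 9 libraries of the other, with the treated libraries all above the untreated ones. The ratio of summed, scaled counts between the lines was 64.9 (95% counting interval 21.9 to 317) at 0 h, 97.0 (41.3 to 299.9) at 12 h and 115 (49.0 to 356) at 24 h, intervals that cover counting error only. Single libraries carried most of the few HCC1937-EV counts, and the ratio was 130.0 (23.1 to 5160) without replicate 1 at 0 h, 317 (56.7 to 12563) without replicate 2 at 12 h and 383 (68.4 to 15149) without replicate 1 at 24 h, with 1 count left in each. Leaving out the library with no count lowered it. The ratio was then 43.2 (14.6 to 211) without replicate 3 at 0 h and 64.3 (27.4 to 199) without replicate 1 at 12 h. At 24 h it was 76.5 (32.6 to 237) without replicate 2. Within HCC1937-OE-BRCA1, RIGI rose by 1.38 ± 0.26 (SE) on the log2 scale at 12 h (edgeR, adjusted p = 0.00346) and by 1.50 ± 0.26 at 24 h (adjusted p = 0.000875). Its 12 h and 24 h libraries overlapped. With at most 5 counts per condition in HCC1937-EV, the 95% interval of its log2 change there was -1.40 to 2.86 at 12 h and -1.51 to 2.74 at 24 h, which holds both no change and the rises seen in the other line.

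IFIH1 (ENSG00000115267.9, chr2:162267079-162318703, minus strand) encodes MDA5, the helicase that assembles along long dsRNA. It measured 9.94, 6.80 and 6.85 CPM in untreated HCC1937-EV, 9.99, 6.19 and 7.60 CPM at 12 h and 7.97, 7.13 and 6.53 CPM at 24 h, with overlap among all 3 conditions. In HCC1937-OE-BRCA1 it measured 148, 118 and 109 CPM untreated, 297, 304 and 282 CPM at 12 h and 257, 276 and 281.8 CPM at 24 h. All treated libraries thus stood above all untreated ones, and the 24 h libraries lay just below those at 12 h. The log2 difference between the lines was 3.99 ± 0.17 at 0 h (edgeR, adjusted p = 6.86e-15), 5.21 ± 0.17 at 12 h and 5.23 ± 0.17 at 24 h. IFIH1 rose by 1.23 ± 0.14 at 12 h (adjusted p = 9.98e-06) and by 1.12 ± 0.14 at 24 h (adjusted p = 2.43e-05) in HCC1937-OE-BRCA1, and its log2 change in HCC1937-EV was 0.01 ± 0.17 and -0.12 ± 0.17. The difference of these changes passed the test both at 12 h (1.22 ± 0.22, adjusted p = 0.00962) and later at 24 h (1.24 ± 0.22, adjusted p = 0.00144). Fitted on the libraries of the compared conditions alone, the 12 h difference kept its size, with an adjusted p of 0.0680.

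DHX58 (ENSG00000108771.13, chr17:42101404-42112733, minus strand) encodes LGP2, a relative of both helicases without the signalling domains, which tunes their activity. HCC1937-EV had 5, 4 and 9 counts untreated, 11, 12 and 7 at 12 h and 22, 5 and 22 at 24 h. HCC1937-OE-BRCA1 measured 25.9, 35.0 and 34.3 CPM untreated, 71.6, 58.9 and 62.0 CPM at 12 h and 59.7, 62.6 and 64.4 CPM at 24 h. As with RIGI and IFIH1, every treated HCC1937-OE-BRCA1 library was above every untreated one, and the 2 times overlapped. The summed, scaled counts were 85.4-fold higher (53.9 to 144.5) than in HCC1937-EV at 0 h, 99.0-fold (69.2 to 147) at 12 h and 64.2-fold (48.5 to 87.0) at 24 h. DHX58 rose by 1.02 ± 0.18 at 12 h (edgeR, adjusted p = 0.00155) and by 0.97 ± 0.18 at 24 h (adjusted p = 0.00136) in HCC1937-OE-BRCA1.

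DHX58 was also the gene called higher in HCC1937-EV at 24 h, by 1.37 ± 0.45 (edgeR, adjusted p = 0.0465), though replicate 2 at 24 h lay within the range of the untreated libraries. The call was lost with a block for replicate number (1.36, adjusted p = 0.0578), once corrected for length and GC content (1.15, adjusted p = 0.0857, or 0.102 with the block too) and without any of untreated replicates 1 to 3 or of replicates 1 and 3 at 24 h, where the change was 1.08 to 1.75 and the adjusted p 0.0586 to 0.181. The change of DHX58 did not pass the test of a difference between the lines (0.23 ± 0.57 at 12 h and -0.39 ± 0.48 at 24 h), with 95% intervals of -0.89 to 1.35 and -1.33 to 0.54.

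TLR3 (ENSG00000164342.13, chr4:186069152-186088069, plus strand), the endosomal dsRNA receptor, differed less between the lines. Its level was 7.58, 6.74 and 5.0 CPM in untreated HCC1937-EV, 7.43, 5.13 and 4.01 CPM at 12 h and 5.90, 4.54 and 4.49 CPM at 24 h. The HCC1937-OE-BRCA1 libraries measured 19.2, 13.7 and 12.2 CPM untreated, 24.6, 28.8 and 29 CPM at 12 h and 35.2, 33.2 and 41.3 CPM at 24 h, so that the libraries of each time lay above those of the earlier one. The log2 difference between the lines was 1.22 ± 0.21 at 0 h (edgeR, adjusted p = 2.06e-05), 2.31 ± 0.21 at 12 h and 2.87 ± 0.21 at 24 h. TLR3 rose by 0.87 ± 0.19 at 12 h (adjusted p = 0.0130) and by 1.28 ± 0.19 at 24 h (adjusted p = 0.000186) in HCC1937-OE-BRCA1. The step from 12 h to 24 h, 0.41 ± 0.19, did not pass the test (adjusted p = 0.256). The difference of the changes between the lines was 1.09 ± 0.29 at 12 h (adjusted p = 0.104) and passed at 24 h (1.65 ± 0.29, adjusted p = 0.00134). Without untreated replicate 2 or 3 or 12 h replicate 2 or 3 of HCC1937-OE-BRCA1, the 12 h rise of TLR3 was 0.74 to 0.83 with an adjusted p of 0.0685 to 0.0710. The 12 h difference of the changes passed without 12 h replicate 1 of HCC1937-EV (1.36, adjusted p = 0.0243) or untreated replicate 1 of HCC1937-OE-BRCA1 (1.30, adjusted p = 0.0184).

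ZBP1 (ENSG00000124256.15, chr20:57603846-57620576, minus strand) binds left-handed, Z-form RNA and DNA and can start necroptosis, a lytic form of cell death. It had no count in any HCC1937-EV library at 0 h and 24 h and 0, 2 and 0 counts at 12 h. In HCC1937-OE-BRCA1 it had 5, 15 and 20 counts untreated (0.308, 0.924 and 1.26 CPM), 74, 69 and 73 at 12 h (4.65, 4.17 and 4.64 CPM) and 76, 71 and 63 at 24 h (4.67, 4.36 and 3.86 CPM). The treated libraries all lay well above the untreated ones and the times overlapped. Against a floor of 3 counts over the 3 libraries of HCC1937-EV, HCC1937-OE-BRCA1 had a level of ZBP1 at least 13.4-fold higher at 0 h and at least 72.5-fold higher at 24 h, and at 12 h the ratio was 104 (95% counting interval 28.4 to 863). Without HCC1937-EV replicate 2 at 12 h, which held both counts, the level was at least 45.3-fold higher against the same floor over 2 libraries. Its rise in HCC1937-OE-BRCA1 was the steepest of the 10 genes, with 2.43 ± 0.38 at 12 h (edgeR, adjusted p = 0.00107) and then 2.36 ± 0.38 at 24 h (adjusted p = 0.000830). Blood cells also express ZBP1. Among 7 blood cell markers, PTPRC had no count in HCC1937-EV and 1.09 ± 0.979, 0.931 ± 0.331 and 1.23 ± 0.464 CPM at 0 h, 12 h and 24 h in HCC1937-OE-BRCA1, while CD14, a lipopolysaccharide co-receptor, had 40.6 ± 8.39, 77.7 ± 4.97 and 77.9 ± 7.66 CPM there. ITGAM, an integrin of myeloid cells, averaged 0.226, 0.0440 and 0.0197 CPM in HCC1937-EV and 5.69 ± 0.678, 6.03 ± 0.536 and 4.07 ± 0.926 CPM in HCC1937-OE-BRCA1. The 3 markers that passed the filter were called higher in HCC1937-OE-BRCA1 at every time, and CD14 also rose there by 0.94 ± 0.15 at both 12 h and 24 h of olaparib. CD68, NKG7 and HBB stayed under 1 CPM in both lines and CD3E was not analysed here. The markers summed to 0.375 to 0.989 CPM in HCC1937-EV and 38.9 to 92.5 CPM in HCC1937-OE-BRCA1, and their part in the result was not tested.

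**Figure D2:**
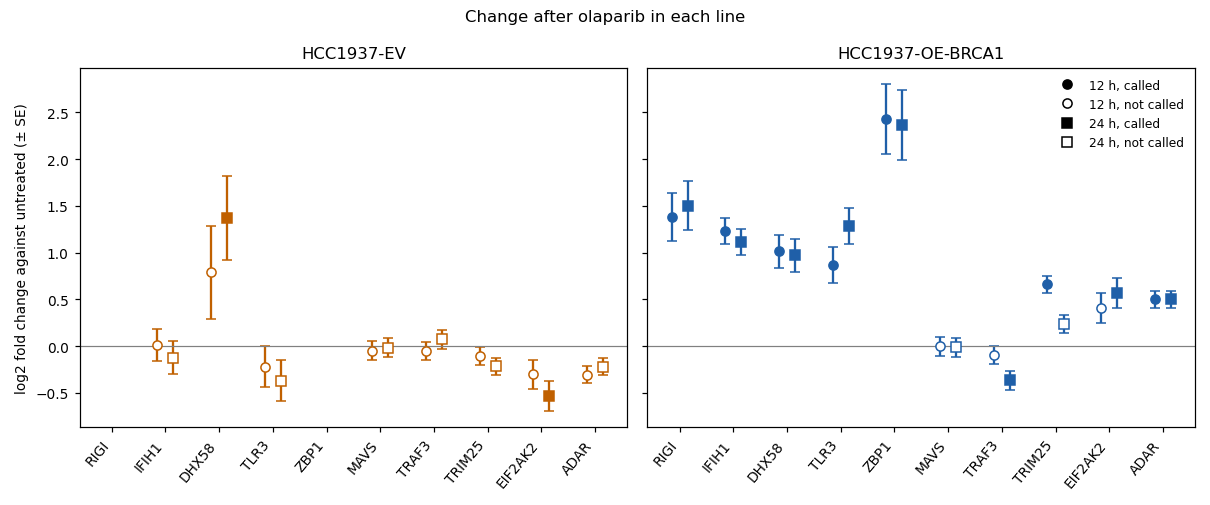
Log2 fold change against untreated cells (points, bars ± SE) of each gene at 12 h (circles) and 24 h (squares) in HCC1937-EV (left) and HCC1937-OE-BRCA1 (right), with filled symbols for an adjusted p under 0.05. RIGI and ZBP1 are left out on the left for their low counts, and 7 of 10 genes are filled and above 0 at each time on the right, from 0.50 (ADAR) to 2.43 (ZBP1).

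EIF2AK2 (ENSG00000055332.19, chr2:37099210-37157065, minus strand) encodes PKR, the kinase that phosphorylates eIF2α on binding dsRNA. It measured 191, 174 and 179 CPM in untreated HCC1937-EV, 169, 162 and 109.6 CPM at 12 h and 120.3, 114 and 142 CPM at 24 h, with all treated libraries below the untreated ones. In HCC1937-OE-BRCA1 it measured 399, 241 and 265 CPM untreated, 375, 406 and 420.1 CPM at 12 h and 426, 446 and 469 CPM at 24 h. Untreated replicate 1 stood apart at 399 CPM and lay within the range of the 12 h libraries. The log2 difference between the lines was 0.74 ± 0.16 at 0 h (edgeR, adjusted p = 0.000302), 1.45 ± 0.16 at 12 h and 1.83 ± 0.16 at 24 h. The lines had moved apart by 24 h of olaparib. In HCC1937-OE-BRCA1 the change was 0.41 ± 0.16 at 12 h (adjusted p = 0.261) and EIF2AK2 rose by 0.57 ± 0.16 at 24 h (adjusted p = 0.0302), while in HCC1937-EV the change was -0.30 ± 0.16 at 12 h (adjusted p = 0.352) and EIF2AK2 fell by 0.53 ± 0.16 at 24 h (adjusted p = 0.0328). The difference of the changes was 0.71 ± 0.22 at 12 h (adjusted p = 0.172), or 0.96 without untreated replicate 1 of HCC1937-OE-BRCA1 (adjusted p = 0.00857), and 1.10 ± 0.22 at 24 h (adjusted p = 0.00304). Corrected for length and GC content, the 24 h difference of the changes was 0.59 (adjusted p = 0.000124).

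The calls of EIF2AK2 within a line rested on few libraries. Untreated replicate 1 of HCC1937-OE-BRCA1 also carried part of the 0 h difference between the lines, which was 0.49 without it (edgeR, adjusted p = 0.00268). In HCC1937-OE-BRCA1 the rise was 0.66 at 12 h (edgeR, adjusted p = 0.00859) and 0.82 at 24 h without untreated replicate 1, and 0.43 to 0.60 at 24 h, with an adjusted p of 0.0599 to 0.170, without untreated replicate 2 or 3 or any 24 h replicate. A fit of the compared libraries alone gave 0.55 (adjusted p = 0.0717). The 12 h rise was called once corrected for length and GC content (0.46, adjusted p = 2.86e-05) and without the filter on low counts (0.40, adjusted p = 0.0326). In HCC1937-EV the fall at 24 h was -0.17 once corrected for length and GC content (adjusted p = 0.0737), and its adjusted p was 0.0572 to 0.133 without any of the 3 untreated replicates or 24 h replicate 1 or 2. At most 401 exonic bases of EIF2AK2 overlap genes on the other strand (GPATCH11 and a pseudogene), and whether strand was used in counting is not given in the sources used here.

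Of the signalling genes, MAVS and TRAF3 did not rise after olaparib and TRIM25 did. MAVS (ENSG00000088888.18, chr20:3846799-3876123, plus strand), the mitochondrial adaptor of RIG-I and MDA5, measured 145, 154 and 160.2 CPM in untreated HCC1937-EV and 179, 157 and 197 CPM in untreated HCC1937-OE-BRCA1. Treated libraries lay at 134 to 162 CPM and 169 to 188 CPM, around the untreated ones of their line. In HCC1937-OE-BRCA1 its log2 change was 0.00 ± 0.10 at 12 h (95% interval -0.20 to 0.19) and -0.01 ± 0.10 at 24 h (-0.21 to 0.18), and in HCC1937-EV -0.05 ± 0.10 and -0.02 ± 0.10. The HCC1937-OE-BRCA1 intervals lie below every called rise of the other genes at those times. Between the lines MAVS differed by 0.22 ± 0.10 at 0 h (edgeR, adjusted p = 0.0571), 0.26 ± 0.10 at 12 h (adjusted p = 0.0231) and then 0.22 ± 0.10 at 24 h (adjusted p = 0.0512). The 12 h call of MAVS was lost without HCC1937-EV replicate 1 (0.21, adjusted p = 0.103) or HCC1937-OE-BRCA1 replicate 3 (0.22, adjusted p = 0.0929), and it was 0.17 once corrected for length and GC content (adjusted p = 0.00867). The 0 h and 24 h differences passed the test in most alternative fits, with DESeq2's size factors (0.26 and 0.25), with the replicate block (adjusted p = 0.0345 and 0.0289) and after the correction for length and GC content (0.34, adjusted p = 7.75e-06, and 0.19, adjusted p = 0.00259) among them. Neither passed without the filter on low counts (adjusted p = 0.121 and 0.261), and the 0 h one did not in a fit of its own libraries alone (0.113). They also passed without untreated replicate 2 of HCC1937-OE-BRCA1 (0.30, adjusted p = 0.0145) and without 24 h replicate 3 of HCC1937-EV (0.28, adjusted p = 0.0352).

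TRAF3 (ENSG00000131323.16, chr14:102777476-102911500, plus strand), a ubiquitin ligase that links MAVS and TLR3 to the kinases of IRF3, moved against the sensors. It measured 50.9, 52.3 and 54.6 CPM in untreated HCC1937-EV, 47.1, 52.8 and 52.7 CPM at 12 h and 50.6, 56.2 and 59.1 CPM at 24 h. The HCC1937-OE-BRCA1 libraries measured 67.9, 64.7 and 74.2 CPM untreated, 59.8, 66.5 and 67.1 CPM at 12 h and 57.1, 48.6 and 54.6 CPM at 24 h. The 24 h libraries lay below all untreated and 12 h libraries of that line and within the range of HCC1937-EV. TRAF3 was higher in HCC1937-OE-BRCA1 by 0.39 ± 0.10 at 0 h (edgeR, adjusted p = 0.00130) and 0.34 ± 0.10 at 12 h, and the difference at 24 h was -0.05 ± 0.10 (adjusted p = 0.666). It fell by 0.37 ± 0.10 at 24 h in HCC1937-OE-BRCA1 (adjusted p = 0.0239), and the difference of the changes between the lines was -0.44 ± 0.14 (adjusted p = 0.0314). The fall of TRAF3 had an adjusted p of 0.0814 to 0.131 without untreated replicate 3 or 24 h replicate 2 or 3 and of 0.0906 in a fit of its own libraries alone, and the difference between the lines had one of 0.0533 to 0.0950 without any of 8 single libraries, namely HCC1937-EV untreated replicates 1 to 3 and 24 h replicates 2 and 3, and HCC1937-OE-BRCA1 untreated replicate 3 and 24 h replicates 2 and 3.

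TRIM25 (ENSG00000121060.19, chr17:56836387-56914080, minus strand), a ubiquitin ligase that activates RIG-I, peaked at 12 h. It measured 218, 234 and 233 CPM in untreated HCC1937-EV, 196, 229 and 212 CPM at 12 h and 179, 199 and 212 CPM at 24 h. The HCC1937-OE-BRCA1 libraries measured 184, 182 and 217 CPM untreated, 309, 305 and 307 CPM at 12 h and 228, 218 and 240.3 CPM at 24 h. The 12 h libraries stood above all others by a wide margin and within 4 CPM of each other. TRIM25 rose by 0.66 ± 0.09 at 12 h (edgeR, adjusted p = 0.000153), its change at 24 h was 0.24 ± 0.09 (adjusted p = 0.118), and it fell by 0.42 ± 0.09 from 12 h to 24 h (adjusted p = 0.0205). The difference of the changes between the lines was 0.77 ± 0.13 at 12 h (adjusted p = 0.00550) and then 0.45 ± 0.13 at 24 h (adjusted p = 0.0204). Between the lines TRIM25 was the gene that turned, with -0.23 ± 0.09 at 0 h (adjusted p = 0.0287), 0.53 ± 0.09 at 12 h (adjusted p = 2.71e-05) and then 0.22 ± 0.09 at 24 h (adjusted p = 0.0390). The call at 0 h was lost in 7 of 8 alternative fits, with -0.12 the smallest difference, once corrected for length and GC content.

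Single libraries also moved the smaller calls of TRIM25. Without any 1 of the 6 libraries compared, its fall from 12 h to 24 h was -0.46 to -0.39 with an adjusted p of 0.0771 to 0.134 (edgeR). The 0 h call between the lines was lost without HCC1937-EV replicate 2 or 3 or HCC1937-OE-BRCA1 replicate 1 or 2 (adjusted p 0.0702 to 0.105), and the 24 h call without replicate 1 or 2 of HCC1937-EV or replicate 1 or 3 of HCC1937-OE-BRCA1 (0.0712 to 0.192). The 24 h difference of the changes was lost without 24 h replicate 1 of HCC1937-EV, untreated replicate 2 or 24 h replicate 3 of HCC1937-OE-BRCA1 (0.0596 to 0.0658). TRIM25 shares at most 538 exonic bases with any of 4 other genes, an antisense RNA among them.

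ADAR (ENSG00000160710.18, chr1:154582057-154628013, minus strand), the adenosine deaminase that edits dsRNA, was the most abundant of the 10 per length in every condition. Its long isoform is induced by interferon and its short isoform is constitutive, and counts per gene hold both. It measured 613, 657 and 631 CPM in untreated HCC1937-EV, 514, 526 and 500.6 CPM at 12 h and 493, 542 and 598 CPM at 24 h. The HCC1937-OE-BRCA1 libraries measured 836, 692 and 854 CPM untreated, 1091, 1137 and 1144 CPM at 12 h and 1086, 1074 and 1208 CPM at 24 h. Treated libraries lay above untreated ones in HCC1937-OE-BRCA1 and below them in HCC1937-EV, without overlap in either line. ADAR rose by 0.50 ± 0.09 at both 12 h (edgeR, adjusted p = 0.00282) and 24 h (adjusted p = 0.00171) in HCC1937-OE-BRCA1. In HCC1937-EV its change was -0.30 ± 0.09 at 12 h (adjusted p = 0.156) and then -0.22 ± 0.09 at 24 h (adjusted p = 0.112), which did not pass. The difference of the changes was 0.80 ± 0.13 at 12 h (adjusted p = 0.00344) and then 0.72 ± 0.13 at 24 h (adjusted p = 0.00161). Between the lines ADAR was higher in HCC1937-OE-BRCA1 by 0.33 ± 0.09 at 0 h (adjusted p = 0.00364), 1.13 ± 0.09 at 12 h and 1.04 ± 0.09 at 24 h. In a fit of the compared libraries alone, the 12 h rise of ADAR was 0.49 with an adjusted p of 0.0662.

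Compared per length, as mean TPM, counts divided by GENCODE exonic length and scaled to a fixed sum per library, the order of the genes differed between the lines. In untreated HCC1937-EV, ADAR (217 ± 12.1 TPM) was followed by TRIM25 (79.9 ± 4.67), EIF2AK2 (55.9 ± 1.69) and MAVS (43.2 ± 2.61), and the receptors were low, with IFIH1 at 5.10 ± 1.08, TLR3 at 3.18 ± 0.641 and DHX58 at 0.320 ± 0.138 TPM. In HCC1937-OE-BRCA1 at 12 h, ADAR (398 ± 22.6 TPM) was followed by IFIH1 (198 ± 7.39), EIF2AK2 (128 ± 11.3) and TRIM25 (111 ± 3.13), with DHX58 at 57.2 ± 4.37 TPM. IFIH1 thus ranked below ADAR, TRIM25, EIF2AK2, MAVS and TRAF3 in HCC1937-EV, below ADAR and EIF2AK2 in untreated HCC1937-OE-BRCA1 and next to ADAR in treated HCC1937-OE-BRCA1. RIGI and ZBP1 were the lowest in every condition, at 9.35 ± 0.538 and 2.84 ± 0.259 TPM in HCC1937-OE-BRCA1 at 24 h.

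**Figure D3:**
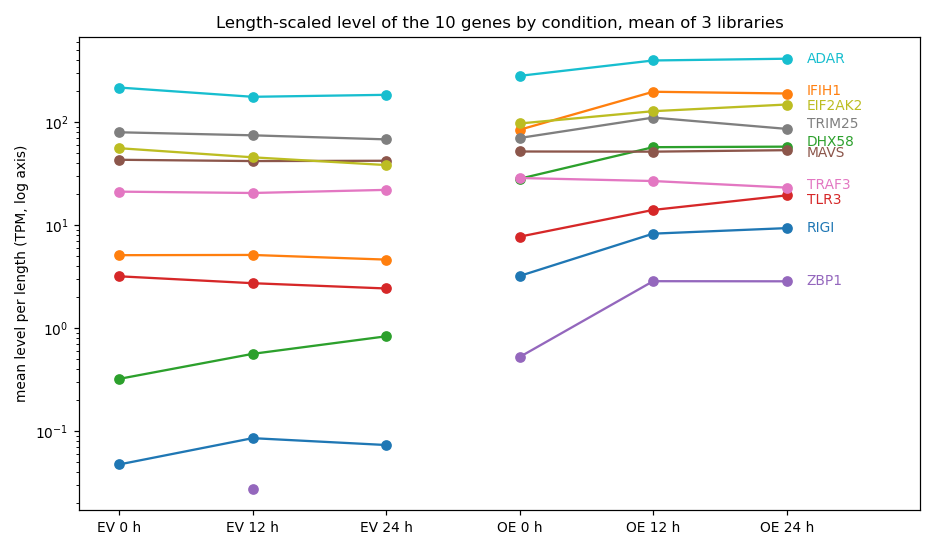
Mean TPM of 3 libraries (log axis) of each gene in the 6 conditions, joined within a line. ADAR is on top throughout, the sensors IFIH1, DHX58, TLR3, RIGI and ZBP1 lie lower in HCC1937-EV (EV) than in HCC1937-OE-BRCA1 (OE), and ZBP1 has no point where all 3 libraries had no count.

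Within the 9 HCC1937-OE-BRCA1 libraries, the log2 CPM of RIGI followed that of ADAR (Pearson r = 0.987) and DHX58 that of ZBP1 (r = 0.977), and TRAF3 ran opposite to TLR3 (r = -0.718). These are descriptions over 9 libraries that share the change from untreated to treated cells. Among 14727 other genes with at least 1 CPM, those most like RIGI were CA12, OAS3, SRGAP3, PARP14 and ZNFX1 (r = 0.981 to 0.989), and those most like IFIH1 were SLC6A14, CMPK2, SPATS2L, ERRFI1 and TRIM22 (0.987 to 0.996). DHX58 was closest to APOL3, UBE2L6, LGALS9, SFI1 and OASL (0.981 to 0.992), ZBP1 to LIF, SFI1, IFITM1, APOL3 and PML (0.981 to 0.989), and TLR3 to ERAP1, IFI44L, CPHL1P, RABGAP1L and a gene listed by identifier alone (0.989 to 0.993). The nearest genes of ADAR were RNF213, FN1, OAS3, TACC2 and ARHGAP26 (0.986 to 0.995), those of EIF2AK2 were SMCHD1, PPFIBP1, XRN1, SLC44A1 and TENT5A (0.983 to 0.990), and those of TRIM25 were XYLB, ATP10A, PLAT, PKP1 and AQP3 (0.972 to 0.983). TRAF3 was closest to RBM19, FOXK2, ANKRD52, PITPNM3 and KRT87P (0.950 to 0.977).

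Genes of the pathway outside the group were counted against all genes tested, of which 1.7% rose and 0.605% fell at 12 h and 4.71% rose and 3.55% fell at 24 h of olaparib in HCC1937-OE-BRCA1. The lists hold 5 to 23 tested genes, so 1 or 2 calls in a list are given as values of those genes alone. Among 14 activators and cofactors of RIG-I and MDA5, 1 rose and none fell at 12 h, and 3 rose and 2 fell at 24 h. DDX60, a helicase that promotes RIG-I signalling, rose by 0.73 ± 0.14 (edgeR, adjusted p = 0.00450) and 0.85 ± 0.14 (adjusted p = 0.000601), ZC3HAV1, the zinc finger antiviral protein, rose by 0.67 ± 0.12 at 24 h, and TRIM65, a ligase that activates MDA5, fell by 0.41 ± 0.10 at 24 h. DDX60 was also 5.36 ± 0.18 higher on the log2 scale in untreated HCC1937-OE-BRCA1 than in HCC1937-EV. Of 18 brakes on the receptors, 1 rose at 12 h and 2 at 24 h, with none lower. NLRC5 rose by 0.91 ± 0.10 (adjusted p = 4.74e-06) and 0.66 ± 0.10, and CYLD, a deubiquitinase, rose by 0.50 ± 0.12 at 24 h. The median log2 change was 0.07 and -0.07 for the activators and 0.06 at both times for the brakes.

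Downstream of MAVS and TLR3, 2 of 23 tested genes rose at 12 h and none fell, and 2 rose and 1 fell at 24 h. IRF1, an interferon regulatory factor, rose by 0.65 ± 0.10 (edgeR, adjusted p = 0.000367) and 0.87 ± 0.10 (adjusted p = 7.38e-06), UNC93B1, the chaperone that brings TLR3 to endosomes, by 0.61 ± 0.15 at 12 h, and TRAF2 fell by 0.47 ± 0.14 at 24 h. IRF7 was below the filter on low counts, with 53 counts over all libraries. In the arm of PKR and eIF2, 1 of 17 genes rose at 12 h and 2 at 24 h, namely ATF3 (0.85 ± 0.11 and 0.90 ± 0.11), a stress-induced transcription factor, and DNAJC3 (0.48 ± 0.10 at 24 h), an inhibitor of PKR. Of 14 tested genes of editing and dsRNA binding, 1 rose at 12 h, and 2 rose and 1 fell at 24 h. ADARB1, the other catalytically active editing enzyme, rose by 0.62 ± 0.09 at 12 h (adjusted p = 0.000177) and 0.37 ± 0.09 at 24 h, and stood 1.93 log2 units below HCC1937-EV in untreated cells (-1.93 ± 0.09), the opposite order to ADAR. PNPT1, which degrades mitochondrial dsRNA, rose by 0.53 ± 0.13 at 24 h. ADAD2 was below the filter with 36 counts, and ADAD1 was not analysed here.

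Of 5 tested genes around ZBP1 and necroptosis none was called at 12 h and 1 rose at 24 h, RIPK1 (0.33 ± 0.09, edgeR, adjusted p = 0.0240), and RIPK3, the kinase that ZBP1 engages, was not analysed here. Of 8 other helicases of RNA sensing, ZNFX1 rose at 12 h (0.84 ± 0.09, adjusted p = 9.16e-06) and 24 h (0.97 ± 0.09). A reference list of 17 interferon-induced genes, some of which the study itself picked from these samples, gave 15 higher and none lower at both times, with a median of 1.28.

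Between the untreated lines, the other lists held calls in both directions, beside 39.4% of all genes higher and 33.3% lower. Activators gave 4 higher and 4 lower of 14 in HCC1937-OE-BRCA1, brakes 8 and 6 of 18, genes downstream of MAVS and TLR3 13 and 8 of 23, the PKR and eIF2 arm 4 and 8 of 17, editing and dsRNA binding 3 and 8 of 14, and the other helicases 2 and 6 of 8. IRF3, which was named after its values were seen, was higher by 1.10 ± 0.17 (edgeR, adjusted p = 4.80e-06) and IRF1 by 2.32 ± 0.11 (adjusted p = 6.14e-14), while the helicase DHX33 was at -1.70 ± 0.10. IRF3 measured 116, 183 and 188 CPM in untreated HCC1937-OE-BRCA1 and 72.2, 77.1 and 78.2 CPM in untreated HCC1937-EV. Its means in the same order were 154 and 97.4 CPM at 12 h and 131 and 107 CPM at 24 h. All 17 interferon-induced genes were higher.

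In HCC1937-EV no gene of the 8 lists was called at 12 h, where 0.0436% of all genes were called in either direction. At 24 h, where 8.62% of all genes rose and 5.12% fell, 5 of the 23 genes downstream of MAVS and TLR3 rose and 1 fell, among them FADD (0.93 ± 0.22, edgeR, adjusted p = 0.0118), a death-domain adaptor, TRAF2 (0.54 ± 0.14) and IRF3 (0.50 ± 0.16, adjusted p = 0.0488), the factor that switches on interferon genes, named here after its values were seen. Editing and dsRNA-binding genes gave 1 higher and 3 lower, with DHX9, a helicase that unwinds dsRNA, at -0.33 ± 0.08 and DICER1 at -0.74 ± 0.19. Of the 17 interferon-induced genes, 6 rose, led by OASL (1.56 ± 0.12, adjusted p = 3.33e-07), IFIT2 (1.16 ± 0.13) and IFI6 (1.99 ± 0.33). IFIH1, TLR3 and ADAR were not called in that line.

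**Figure D4:**
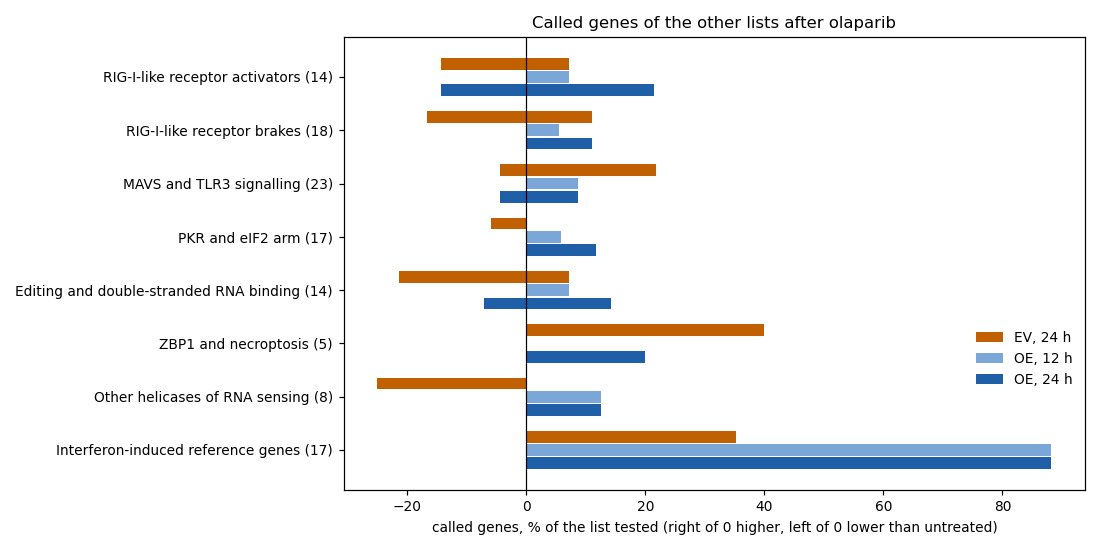
Share of the tested genes of each list (number tested in parentheses) called higher (right of 0) or lower (left of 0) than untreated cells, for HCC1937-EV at 24 h (orange) and HCC1937-OE-BRCA1 at 12 h (light blue) and 24 h (dark blue). The interferon-induced list has 15 of 17 genes higher in HCC1937-OE-BRCA1 at both times and 6 of 17 in HCC1937-EV, and no other list passes 5 genes in a direction.

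Matches to the promoter pattern were read against the same lists. Of all 27305 genes with a window, 7.83% held a match in at least 1 window. Of 12 interferon-induced genes with a window, 10 held a match, and so did 3 of 10 activators (DDX60 among them), 3 of 19 genes downstream of MAVS and TLR3, 2 of 5 around ZBP1 and necroptosis, 1 of 6 other helicases, 1 of 14 of editing and dsRNA binding, 1 of 16 of the PKR arm and 1 of 17 brakes. Among the markers, 2 of 5 mesenchymal, 1 of 5 blood cell, 0 of 5 mammary epithelial and 0 of 1 endothelial genes did. Of the 8 dsRNA genes with a window, RIGI, IFIH1, TLR3, EIF2AK2 and TRIM25 held a match. In HCC1937-OE-BRCA1 these genes were called higher at 12 h or 24 h of olaparib than untreated. ADAR was called higher in that comparison without a match in its windows, and MAVS and TRAF3 held none and were not. Between the lines at 12 h, MAVS (0.26 ± 0.10, edgeR, adjusted p = 0.0231) and TRAF3 (0.34 ± 0.10, adjusted p = 0.00379) were called higher in HCC1937-OE-BRCA1.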

How the data were processed

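RNA-seq of 18 libraries (3 in each of 6 conditions) was analysed, grouped by line, time and replicate as titled. RNA was extracted with TRIzol, and libraries were made with a NEBNext Ultra II kit. The submitters' processing notes name HISAT2, featureCounts, DESeq2 and GRCh38/hg38, and strandedness is not given in the sources used here. The authors deposited raw counts per gene, whole numbers without normalization, and the 18 single-library tables were checked to equal the joint table. Genes were named by unversioned identifier, and positions and exonic lengths come from GENCODE release 29.

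Here, edgeR 4.0.16 (R 4.3.3) was used with TMM scaling, filterByExpr by condition (18335 of 35044 genes kept) and the quasi-likelihood test in a model with a mean per condition over all libraries. Calls used a Benjamini-Hochberg adjusted p under 0.05 over all genes tested. CPM used the TMM-scaled sum of the counts of the kept genes. SE is the log2 fold change over the root of F, and intervals are 95%. Those of log2 changes use a normal approximation, which makes them somewhat narrower than the F test implies. Log2 CPM for correlations used a prior count of 2. Counts of 0 were given a floor of 3 counts. The script was tested on simulated data. Alternatives were DESeq2 1.42.0 (size factors or Wald test), other count filters, the compared libraries alone, a replicate block, an offset for GC content and length (mgcv 1.9.3), and each library left out. Named genes are the 10 members, up to 3 called genes per list and comparison by lowest adjusted p, and 5 genes most like each called member. The genes, lists and tests were chosen with earlier results of these data known. RIPK3 and ADAD1 were not analysed here. A further blood cell marker is not reported here. No pair of replicates agreed within sampling noise.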

Additional observations from a re-analysis of the deposited data

Results flagged for a closer look

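Changes after olaparib that differed between the lines were picked out by the interaction term of the edgeR fit, given here as the log2 change in HCC1937-OE-BRCA1 minus that in HCC1937-EV. At 12 h the difference was 1.22 for IFIH1 (adjusted p = 0.00962), 0.80 for ADAR (adjusted p = 0.00344) and 0.77 for TRIM25 (adjusted p = 0.00550). At 24 h it was 1.65 for TLR3 (adjusted p = 0.00134), 1.24 for IFIH1 (adjusted p = 0.00144), 1.10 for EIF2AK2 (adjusted p = 0.00304), 0.72 for ADAR (adjusted p = 0.00161) and 0.45 for TRIM25 (adjusted p = 0.0204). TRAF3 went the other way, with -0.44 (adjusted p = 0.0314). For ADAR and EIF2AK2 every treated library of HCC1937-EV lay below the untreated ones, and for IFIH1 the HCC1937-EV libraries of all times overlapped.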

How the results depend on the processing

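Of 54 calls of the 10 genes over 11 comparisons, 43 held in every alternative fit that tested the gene, 43 in every fit with a library left out and 41 in both, and none changed direction. With at least 10 counts in every library, RIGI, ZBP1 and DHX58 could not be fitted, and 4 genes were called at 12 h and 5 at 24 h in HCC1937-OE-BRCA1 and 1 at 24 h in HCC1937-EV. From 12 h to 24 h in HCC1937-OE-BRCA1, 3 were called in a fit of the compared libraries alone and 0 with any library left out. Of all genes, 145 were higher and 158 lower in the main fit and 1434 and 1774 with the compared libraries alone. With a library left out these were 25 to 53 and 38 to 58. DESeq2's Wald test called 1 gene (ADAR, -0.31, adjusted p = 0.0367) in HCC1937-EV at 12 h. At 24 h in HCC1937-EV, 0 were called after the GC and length offset, with or without the block, and 0 to 1 with a library left out. The 12 h difference between the lines had 5 called genes, TLR3 and EIF2AK2 added, without the filter, with the GC and length offset, and with that offset and the block, and 3 to 5 with a library left out, the 5 without untreated replicate 1 of HCC1937-OE-BRCA1. Counts with a library left out were 8 to 9, 9 to 10 and 7 to 9 between the lines at 0 h, 12 h and 24 h, 6 to 8 at each time after olaparib in HCC1937-OE-BRCA1, and 4 to 6 for the 24 h difference. Without the filter, MAVS at 12 h and TRIM25 at 24 h between the lines and the 24 h differences of TRAF3 and TRIM25 were not called (adjusted p 0.0566 to 0.257). The median of all genes between the lines was 0.15 at 0 h with DESeq2's size factors, beside 0.11. Numbers of all genes called moved too. In HCC1937-EV at 12 h, 5 genes were higher and 3 lower, and 383 and 79 without 12 h replicate 1. There were 608 and 210 without the filter, 208 and 144 with DESeq2's Wald test, and 0 and 1 with the replicate block. The 12 h difference was more positive for 69 and more negative for 26 of all genes. Without untreated replicate 1 of HCC1937-OE-BRCA1 these were 286 and 486. They were 253 and 391 (of 35044 genes) without the filter, 296 and 292 with the GC and length offset, and 273 and 256 with that offset and the block. The added calls of TLR3 and EIF2AK2 thus came with more calls over all genes.

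Replicate numbers did not pair the libraries. Deviations of same-numbered libraries correlated at -0.23 to 0.30, over 0.1 in 5 of 45 pairs, and a library was closest to its own number in 26 of 90 checks. With the replicate block, 1 gene was called in HCC1937-EV at 24 h in place of 2, with DHX58 lost (1.36, adjusted p = 0.0578). Depth limits RIGI and ZBP1 in HCC1937-EV, where a fall could not have been seen and a rise as large as in HCC1937-OE-BRCA1 could not be told from no change.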
